A study of Mus musculus with 15 samples.

Results

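Plasma cells that express IgE were compared with IgE-expressing cells, cultured in the same way, that had not become plasma cells. The comparison rests on 6 of the 15 libraries of the series: 3 of IgE plasma cells, called IgE PC, and 3 of the cells labelled IgE iGC. Members were chosen by library title alone, not by any measured value. All 15 libraries came from wild-type mouse B cells listed with no treatment. B cells were grown for 6 days on 40LB cells, a feeder layer of fibroblasts, with IL-4 at 100 ng/ml, and an unsorted day 6 sample (D6) was taken then. The rest left the feeder layer, spent the last days in medium without stimulation and were sorted on day 8 into IgE and IgG1 cells, each as PC and iGC. All groups used here therefore share the culture with IL-4 and, at day 8, its withdrawal. The series' design text calls the replicates independent and biological; whether they came from separate animals, and which surface markers the sort used, is not given in the sources used here. These are cultured cells and not germinal centre or bone marrow cells.

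A B cell that becomes a plasma cell gives up the program that lets it sense antigen and present it, and turns into a factory for secreted antibody. BLIMP1 (Prdm1), IRF4 and XBP1 drive the change, and PAX5, BACH2 and BCL6 hold it back. Antibody chains enter the endoplasmic reticulum (ER), where they are folded, glycosylated and checked, and the unfolded protein response (UPR), with its sensors IRE1, PERK and ATF6, adjusts the capacity of the ER to the load. IgE plasma cells are described as forming readily and as short-lived, and the series' title places the study in the control of their formation and survival by calcium signalling.

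Expected counts summed to 17.74 to 40.84 M reads in the IgE iGC libraries and to 37.56 to 43.44 M in IgE PC. The shallowest library was IgE iGC replicate 3. Within each IgE group, replicates correlated at 0.994 to 0.997 over genes on the log2 scale, genes not being independent replicates, and every pair differed by more than sampling noise. Levels are given in CPM, read counts relative to a library size scaled by TMM, a method that sets the bulk of genes level between libraries. Of 15692 genes tested by edgeR's quasi-likelihood test, 30.5% were called higher in IgE PC and 33.6% lower, at a Benjamini-Hochberg adjusted p under 0.05. Those called and changed at least 2-fold made up 13.7% higher and 13.6% lower. For 11186 of the 15692 genes the libraries of the groups did not overlap, so a lack of overlap was common. Over all genes tested the median log2 fold change was -0.08. With scaling by total counts alone it was -0.55, and the calls split into 2651 higher and 8743 lower, in place of 4788 and 5270. Directions are thus relative to the bulk of genes, and values shift by 0.47 on the log2 scale with the scaling. Expected counts are fractional where reads fit several genes. Among the genes named below, Cd79a, Derl1, Sec24a, Idi1, Scd1, Ldha, Cflar, Bax, Rpl13a, Rps24, Tpt1 and Eef1a1 had fractional counts in at least 13 of the 15 libraries and are less certain for that reason.

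The 6 libraries carried the markers of their labels. Ighe (ENSMUSG00000087642), the constant region gene of IgE, measured 6176, 5809 and 6232 CPM in IgE iGC and 119984, 120637 and 136282 CPM in IgE PC. Ighg1, that of IgG1, measured 857, 972 and 937 CPM in IgE iGC and 1702, 1859 and 1903 CPM in IgE PC. In TPM, which corrects for gene length, Ighe stood at 7306 and 91023 and Ighg1 at 705 and 1325 in IgE iGC and IgE PC, so IgE transcripts prevailed in both groups. TPM values, here and below, are shares of a library's transcripts without TMM scaling. Their ratios between groups therefore differ from the fold changes, which use TMM. Ighg1 counts were fractional in 13 of the 15 libraries. Sdc1 (ENSMUSG00000020592) encodes the plasma cell surface protein CD138 and measured 2.25, 2.30 and 1.96 CPM in IgE iGC and 311, 317 and 350.0 CPM in IgE PC, with no overlap. The B cell genes Ms4a1, Cd79a and Cd79b fell, yet were not lost, as their means in IgE PC were 917, 949.9 and 807 CPM. In bulk samples, fewer cells of a type and less RNA per cell cannot be told apart.

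Markers of other cells were low in sum and differed between the groups. The 12 fibroblast markers, such as Col1a1 and Fn1, summed to between 62.1 and 82.8 CPM in IgE iGC and to between 25.7 and 40.5 CPM in IgE PC, with 2 of 10 tested called lower. The ranges for the 12 T cell markers were 8.00 to 9.14 CPM and 2.53 to 3.10 CPM, and the defining Cd3e was at 0 in all 6 libraries. Myeloid markers summed to 4.66 to 6.97 CPM and 0.522 to 0.821 CPM, with S100a8, S100a9 and Elane at 0 throughout. Mast cell and basophil, natural killer and erythroid markers stayed at or below 9.71 CPM in sum in every IgE iGC library and below 1 CPM in every IgE PC library. Of the T cell markers tested, Cd5, Lat and Zap70 fell, Trac was not called (0.05; 0.978 to 1.19 CPM in IgE iGC and 1.01 to 1.22 CPM in IgE PC) and Cd247 was called higher (1.16), though its groups overlapped and it lost the call under 7 alternatives, DESeq2 and total-count scaling among them. The natural killer marker Eomes was called higher too, from at most 0.0278 CPM in IgE iGC to between 0.314 and 0.663 CPM in IgE PC. The sums of all 6 marker lists were higher in IgE iGC than in IgE PC, and their part in the results was not tested.

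**Figure D1:**
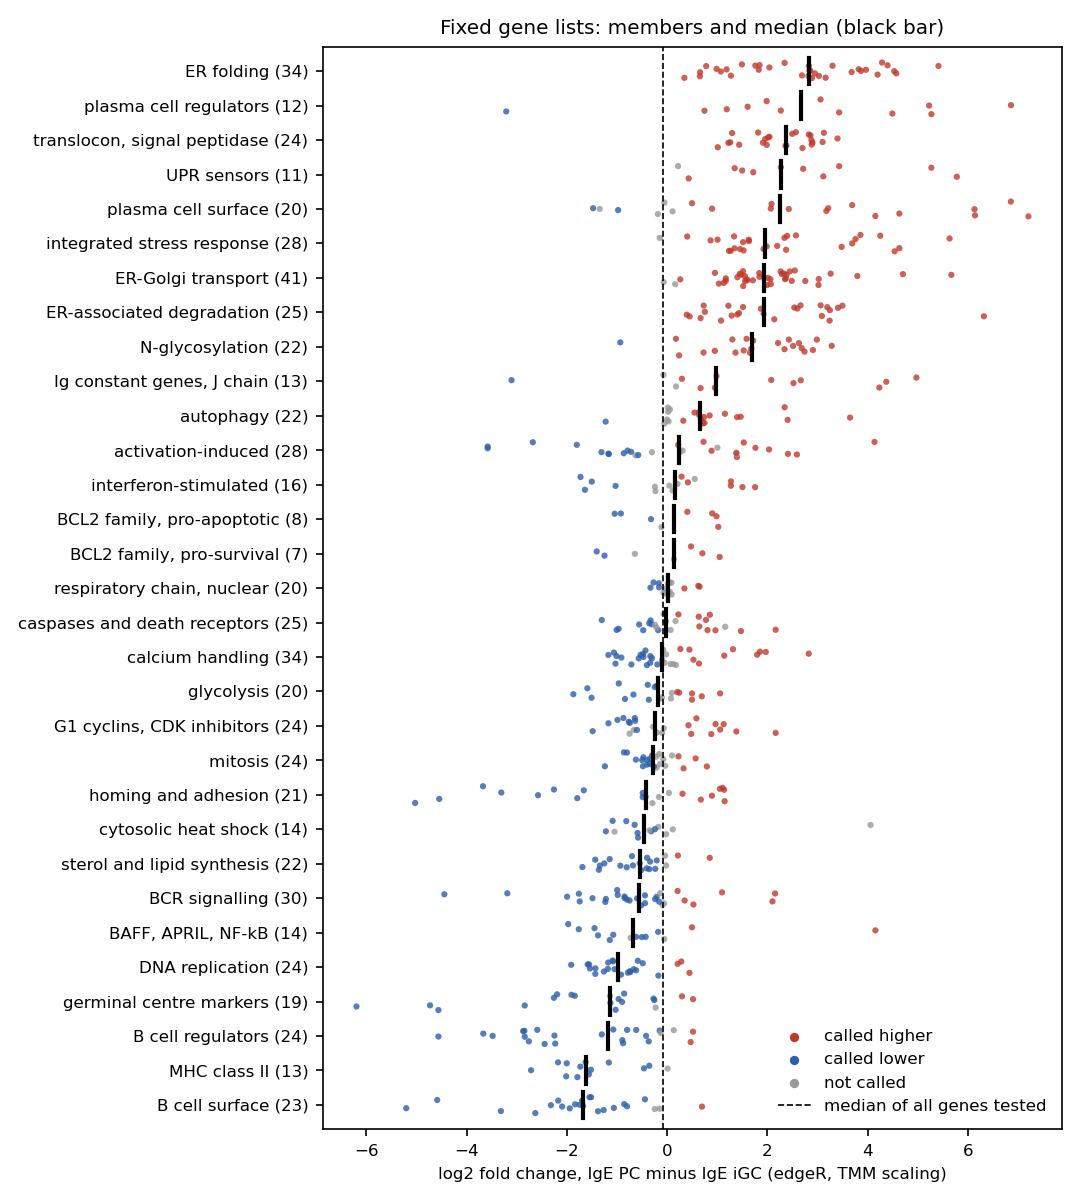
Log2 fold change between IgE PC and IgE iGC (x axis) for the tested members of 31 gene lists (rows, number tested in parentheses), with 1 point per gene coloured by its call and a black bar at each list's median. The lists of the secretory route have medians from 1.70 to 2.83 and lie far to the right of the dashed median of all genes, at -0.08, while B cell surface and MHC class II genes have the lowest medians, -1.68 and -1.63.

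The regulators of both cell states exchanged places. Of 12 plasma cell regulators 11 rose, with a median log2 fold change of 2.66 over the list, and of 24 B cell regulators 20 fell, with a median of -1.19. Prdm1 (ENSMUSG00000038151), the repressor that shuts the B cell program, measured 6.87, 5.86 and 4.96 CPM in IgE iGC and 234, 231 and 211 CPM in IgE PC. The groups lay far apart, at a log2 fold change of 5.23 (SE 0.14; edgeR Benjamini-Hochberg adjusted p = 9.92e-14). Irf4 (ENSMUSG00000021356) measured 103, 98.6 and 97.7 CPM in IgE iGC and 2211, 2230.3 and 2294 CPM in IgE PC, so that it was already expressed in every IgE iGC library and rose 22.5-fold. Xbp1, the transcription factor of the IRE1 branch of the UPR, measured 192, 176 and 162 CPM in IgE iGC and 1847, 1895 and 1974 CPM in IgE PC, a rise of 10.8-fold; gene counts do not separate its spliced form.

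Among the other activators, Bhlha15 encodes MIST1, which enlarges the secretory apparatus. It measured 3.23, 2.36 and 2.32 CPM in IgE iGC and 317, 317 and 309 CPM in IgE PC, with a log2 fold change of 6.86 (SE 0.18). Creb3l2, an ER-bound transcription factor, rose by 5.27 on the same scale and Ell2, an elongation factor that favours the secreted form of the heavy chain, by 3.06. Zbtb32 was the single member that fell, from between 1.23 and 2.01 CPM in IgE iGC to between 0.145 and 0.174 CPM.

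On the B cell side, Pax5 (ENSMUSG00000014030) measured 735, 737 and 767 CPM in IgE iGC and 139.7, 145 and 126 CPM in IgE PC, and its libraries did not overlap between groups. Bach2 measured 145, 141 and 139.7 CPM in IgE iGC and 32.7, 30.8 and 25.9 CPM in IgE PC, and Bcl6 128, 121 and 125 CPM in IgE iGC and 18.0, 16.4 and 17.6 CPM in IgE PC. Their log2 fold changes were -2.45 (SE 0.16), -2.25 (SE 0.18) and -2.84 (SE 0.12). Larger falls were seen for the ETS factor Spib (-3.67), the MHC class II activator Ciita (-3.48) and the E protein inhibitor Id3 (-2.87). Not all of the program fell: Tcf4 and Foxo1 were not called, with values of -0.13 and 0.13 (-0.60 and -0.34, both called lower, under total-count scaling), and Mef2b was called higher at 0.51, or 0.05 and not called under total-count scaling. Foxo1 was called higher in 4 alternatives, which were DESeq2, the related RLE size factors in edgeR, immunoglobulin genes left out and only the IgE libraries in the fit (0.15 to 0.19). Irf8 kept 350.3 CPM in IgE PC, against 865 CPM in IgE iGC.

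**Figure D2:**
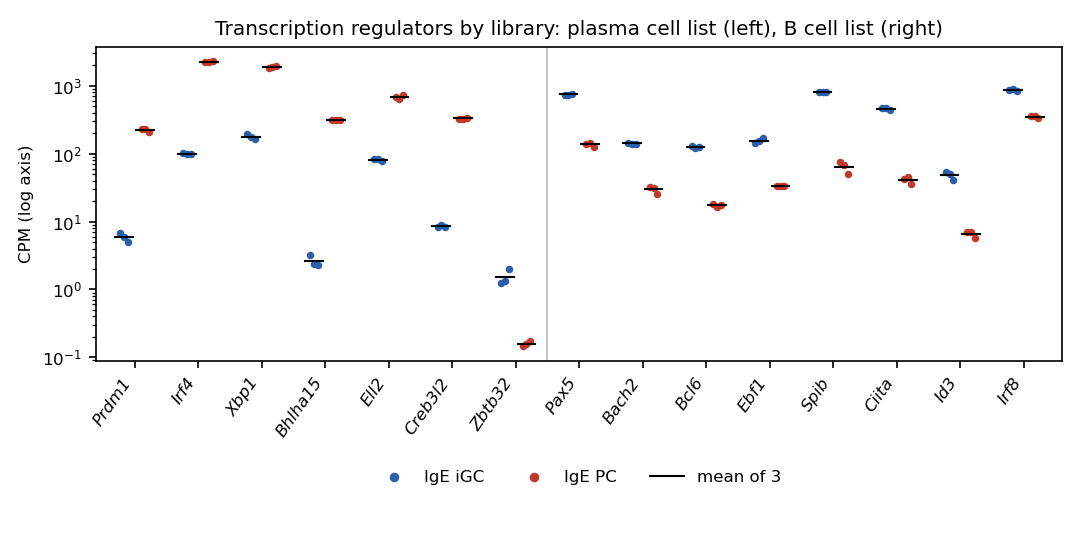
CPM (y axis, log scale) of 15 transcription regulators in each IgE iGC and IgE PC library, 3 points per group with their mean as a bar, plasma cell regulators to the left of the line. For every gene shown the groups stand apart: Bhlha15 lies between 2.32 and 3.23 CPM in IgE iGC and between 309 and 317 CPM in IgE PC, and Zbtb32 and all B cell regulators shown are lower in IgE PC. The groups also stood apart for 11186 of all 15692 genes tested.

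Immunoglobulin transcripts came to fill a large share of the RNA. TPM, which corrects for gene length, put 3.92%, 3.81% and 3.86% of transcripts in immunoglobulin genes in IgE iGC, and 39.9%, 40.2% and 42.5% in IgE PC. As a share of expected counts, not corrected for length, they rose from 1.61% ± 0.0228 to 20.4% ± 0.949 (mean ± SD, n = 3 each). The 145 genes of the secretory route described below went from 1.36% ± 0.00676 to 5.05% ± 0.0534 (mean ± SD, n = 3 each). MHC class II genes went the other way, from 2.81% ± 0.0176 to 0.912% ± 0.0282, as did cytosolic ribosomal protein genes, from 19.7% ± 0.711 to 9.91% ± 0.373. Transcripts of the mitochondrial genome made up 3.73% ± 0.181 and 2.15% ± 0.106. In each of these 5 comparisons the libraries of the groups did not overlap, and the two-sided exact permutation p was 0.1, also after Benjamini-Hochberg adjustment, which is the smallest that 3 against 3 libraries allow. Shares add up to a whole, so these 5 values are not independent of each other. A lower share is therefore not the same as a fall relative to the bulk of genes. By TMM-scaled counts, the 13 protein genes of the mitochondrial genome had a median log2 fold change of -0.09, beside -0.08 for all genes. Of these 13 genes 1 was called higher and 2 lower, or 1 and 7 under total-count scaling. Cytosolic ribosomal protein genes had a median of -0.32 by TMM-scaled counts.

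Ighe rose 20.7-fold and the kappa light chain constant gene Igkc 18.8-fold. Jchain, whose product joins IgM and IgA units into polymers, rose 31.4-fold, to 8763 TPM. Ighd, the constant gene of IgD, fell from 4.38 to 0.515 CPM. Of the 13 constant region and J chain genes 10 were called higher. Gene counts do not separate the membrane and the secreted form of the heavy chain. Outside immunoglobulin and mitochondrial genes, the 10 most abundant transcripts of IgE PC by TPM were Eef1a1, Cd74, Hsp90b1, Rps24, Tpt1, Rpl13a, Slpi, Mzb1, B2m and Hspa5. Of these, Hsp90b1 and Hspa5, the chaperones GRP94 and BiP of the ER, stood at 4520.3 and 2870 TPM, up from 361 and 360.5. Slpi, a secreted inhibitor of leukocyte proteases, rose from 294 to 3428 TPM, and Mzb1, an ER cofactor of GRP94 in B cells, from 596 to 3203 TPM. Cd74, the invariant chain of MHC class II, was still the second of the 10, with 6112 TPM.

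The route of secreted protein rose almost as a whole. Its 5 lists (entry into the ER, N-glycosylation, folding, ER-associated degradation and transport to and from the Golgi) hold 145 tested genes, of which 142 rose, 126 of them at least 2-fold, and 1 fell. The median log2 fold change was 2.07. Under total-count scaling 134 were called higher and 6 lower, with a median of 1.60.

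At the entrance, all 24 genes of the signal recognition particle, translocon and signal peptidase rose, by log2 fold changes of 1.01 to 3.40. Sec61a1, the pore of the translocon, measured 170.4, 168 and 161 CPM in IgE iGC and 1209.8, 1188 and 1269.8 CPM in IgE PC. Every IgE PC library exceeded every IgE iGC library for this gene, a 7.35-fold rise. Tram2 (3.40), the receptor subunit Srprb (3.13) and the translocon-associated Ssr3 (3.10) rose most. In N-glycosylation 21 of 22 genes rose, among them the oligosaccharyltransferase subunits Rpn1 (3.28), Ddost (2.99) and Stt3a (2.74). Alternative subunits of that complex diverged. Magt1 measured 74.9, 76.6 and 75.7 CPM in IgE iGC and 565, 531 and 609 CPM in IgE PC, while Tusc3 measured 21.6, 19.8 and 19.2 CPM in IgE iGC and 11.1, 10.5 and 10.1 CPM in IgE PC. Tusc3 was the single gene of the 5 lists that fell (-0.94, SE 0.08).

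All 34 folding genes rose, with a median of 2.83, the highest of any list. Hspa5 measured 515, 485 and 478 CPM in IgE iGC and 6886, 6750.5 and 7235 CPM in IgE PC, a 14.1-fold difference with no overlap (log2 fold change 3.82, SE 0.10; edgeR Benjamini-Hochberg adjusted p = 7.20e-14). Hsp90b1 rose 21.0-fold; its counts were fractional in all 15 libraries, so reads were divided with similar sequences and the value is less certain. The steepest rises were those of the prolyl isomerase Fkbp11 (5.41), Creld2 (4.57) and the BiP cochaperone Dnajb9 (4.53). Lectin chaperones moved unequally, as Calr rose by 2.82 and Canx by 1.18 on the log2 scale. Among the smaller rises was Erp44 (0.65), which retains unfinished antibody chains.

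All 25 degradation genes rose as well. Derl3 (ENSMUSG00000009092), a derlin of the channel that returns misfolded protein to the cytosol, measured 5.09, 5.44 and 3.98 CPM in IgE iGC and 399.6, 388 and 395 CPM in IgE PC. It rose 79.8-fold, and its relatives Derl1 and Derl2 by 2.60 and 1.51 on the log2 scale. Sel1l and Syvn1, partners in the HRD1 ubiquitin ligase, rose by 3.41 and 1.87, and the mannosidase-like Edem1, Edem2 and Edem3 by 3.25, 3.19 and 3.50. In transport 39 of 41 genes rose. Sec24d, a cargo adaptor of COPII vesicles, measured 11.2, 11.7 and 11.8 CPM in IgE iGC and 578, 572 and 609 CPM in IgE PC. Its paralogues Sec24a, Sec24c and Sec24b stood at 2.45, 0.95 and 0.16, the last not called. Sec24b was called lower under total-count scaling (-0.31) and higher in the same 4 alternatives as Foxo1 and without IgE PC replicate 2 (0.18 to 0.21). Of the receptors that return escaped ER proteins, Kdelr3 rose by 4.70, from 0.0517 to 0.250 CPM in IgE iGC, and Kdelr2 and Kdelr1 by 2.48 and 1.60. The value of Kdelr3 rested on as few as 1 read in an IgE iGC library, so its size is uncertain. Lman1 and Mcfd2, which together carry glycoproteins out of the ER, rose by 3.26 and 3.02.

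**Figure D3:**
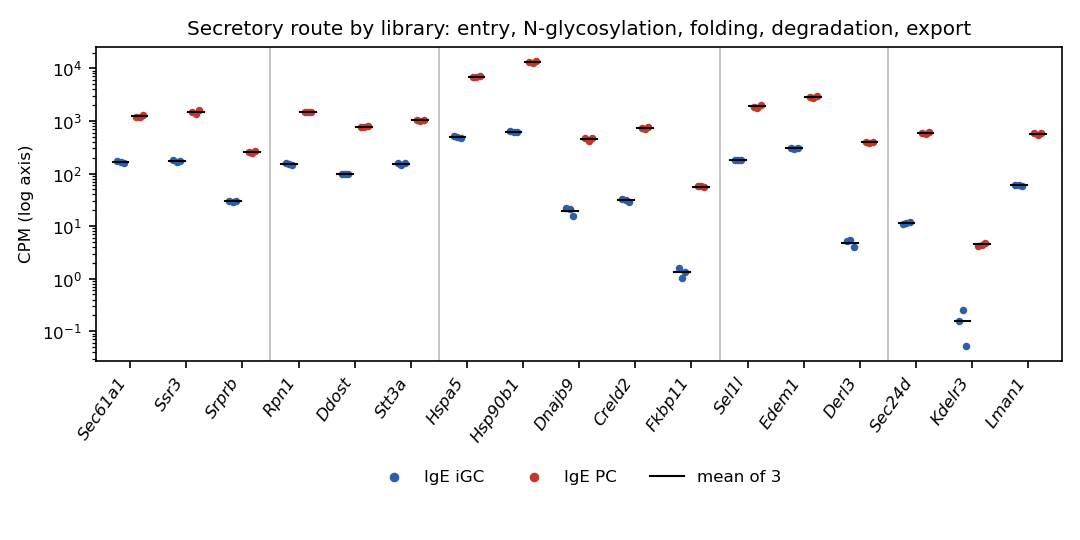
CPM (y axis, log scale) of 17 genes of the secretory route in each IgE iGC and IgE PC library, 3 points per group with their mean as a bar, ordered from ER entry on the left to export on the right. All 3 IgE PC libraries lie above all 3 IgE iGC libraries for each gene, from Kdelr3, at 4.18 to 4.81 CPM in IgE PC, to Hsp90b1, at 12574 to 13635 CPM. Libraries of the groups did not overlap, in either direction, for 11186 of all 15692 genes tested.

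Promoters of these genes were searched for the sequences that UPR factors are known to bind. RefSeq promoters (GRCm38.p6, the 250 bases before the start site, both strands) were matched by symbol for 10549 of the genes tested, 31.5% of which were called higher. The ER stress element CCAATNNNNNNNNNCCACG occurred in 0.113% of all 32851 promoters of the table. Among the genes matched, 18 (0.171%) held it, of which 11 were called higher and 5 lower. It was found in 7 of the 27 folding genes with a promoter (Hspa5, Hsp90b1, Calr, Canx, Pdia6, Dnajc3 and Creld2). Also holding it were 2 of 19 degradation genes (Derl3 and Syvn1) and 1 of 17 genes of N-glycosylation (Alg12). None of the 17 entry or 37 transport genes did. The list genes that held it were all called higher. Of the other genes with the element only Zfp57 was, while Pan2, Adcy3, Acacb, Hnrnpa3 and Gm6566 were called lower. The count of 11 is thus mostly the secretory genes over again. The second form of the element, ATTGGNCCACG, was held by 7 genes tested, Herpud1 among them, and the UPR element core TGACGTGG by 94, Sec24d and Kdelr3 among them. Both forms share the letters CCACG, and CCACG overlaps the reverse complement of the UPR core. Genes with any of the 3 numbered 118, of which 59.3% were called higher, with a median log2 fold change of 0.47. A match is a description of the letters and was not tested as a site of binding.

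Stretches of the promoters of 10 strongly raised genes are printed because they show where these elements lie: the ER stress element in 7 chaperone and degradation genes, its second form in Herpud1, and the UPR element core in the transport genes Sec24d and Kdelr3. Capitals mark the match, which reads as the reverse complement where it lies on the other strand.
Hspa5 (chr2:34771970-34772089, plus strand): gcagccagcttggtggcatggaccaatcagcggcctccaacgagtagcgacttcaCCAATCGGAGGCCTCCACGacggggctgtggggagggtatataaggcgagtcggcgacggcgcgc
Hsp90b1 (chr10:86705525-86705664, minus strand): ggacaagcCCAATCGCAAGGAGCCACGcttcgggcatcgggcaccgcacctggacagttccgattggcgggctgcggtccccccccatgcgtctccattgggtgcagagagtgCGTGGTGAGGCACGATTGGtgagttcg
Creld2 (chr15:88819469-88819588, plus strand): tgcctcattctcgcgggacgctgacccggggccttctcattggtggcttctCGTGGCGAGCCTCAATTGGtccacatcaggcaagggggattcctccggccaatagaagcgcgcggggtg
Derl3 (chr10:75893191-75893310, plus strand): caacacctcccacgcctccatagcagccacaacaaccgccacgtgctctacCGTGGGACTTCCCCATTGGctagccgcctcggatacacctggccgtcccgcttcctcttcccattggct
Pdia6 (chr12:17266440-17266559, plus strand): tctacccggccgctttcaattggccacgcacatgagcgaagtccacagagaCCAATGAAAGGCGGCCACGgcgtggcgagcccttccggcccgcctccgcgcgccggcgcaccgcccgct
Calr (chr8:84847025-84847144, minus strand): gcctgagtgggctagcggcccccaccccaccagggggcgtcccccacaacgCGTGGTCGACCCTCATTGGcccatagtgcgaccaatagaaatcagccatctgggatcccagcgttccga
Dnajc3 (chr14:118937776-118937895, plus strand): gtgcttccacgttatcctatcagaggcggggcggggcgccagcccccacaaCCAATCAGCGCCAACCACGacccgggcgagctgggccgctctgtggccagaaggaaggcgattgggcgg
Herpud1 (chr8:94386309-94386428, plus strand): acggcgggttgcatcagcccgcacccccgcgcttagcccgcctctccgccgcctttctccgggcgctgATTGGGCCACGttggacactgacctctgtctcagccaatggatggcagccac
Sec24d (chr3:123267376-123267495, plus strand): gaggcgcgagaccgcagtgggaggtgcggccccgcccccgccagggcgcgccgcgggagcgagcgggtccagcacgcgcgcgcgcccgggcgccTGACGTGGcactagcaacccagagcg
Kdelr3 (chr15:79516288-79516407, plus strand): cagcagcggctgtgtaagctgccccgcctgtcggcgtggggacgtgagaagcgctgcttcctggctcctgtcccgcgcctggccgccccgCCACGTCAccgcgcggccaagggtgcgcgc

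In Hspa5 the match began 65 bases before the start site, and in Hsp90b1 there were 2 matches, 1 on each strand. Creld2, Derl3, Pdia6, Calr and Dnajc3 each held a single copy, and Herpud1 the shorter second form. These genes rose by log2 fold changes of 4.57 (Creld2), 6.32 (Derl3), 3.30 (Pdia6), 2.82 (Calr), 3.87 (Dnajc3) and 3.06 (Herpud1).

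Sensors and signals of the UPR rose too. Of 11 genes 10 were called higher. Ern1, which encodes IRE1, the kinase and RNase that splices Xbp1, measured 15.4, 14.7 and 15.4 CPM in IgE iGC and 847, 808 and 843 CPM in IgE PC. The rise was 54.9-fold, while Atf6 and the PERK gene Eif2ak3 rose 4.81-fold and 2.54-fold. The integrated stress response, by which phosphorylation of eIF2 raises ATF4 and its targets, was represented by 28 genes, of which 27 rose and none fell, with a median of 1.95. Atf4 rose by 1.98, Ddit3 (CHOP) by 2.37, Atf5 by 4.25 and the pseudokinase Trib3 by 3.85. Slc7a11, the cystine transporter, measured 0.364, 0.722 and 0.775 CPM in IgE iGC and 30.0, 26.7 and 30.9 CPM in IgE PC. It was at or below 0.775 CPM in every IgE iGC library and rose by 5.63 (SE 0.24). Its partner Slc3a2 rose by 4.63, and Slc7a5, the large neutral amino acid transporter that pairs with Slc3a2, by 3.69. Ddit4, which restrains mTORC1, was not called (-0.15), but was called lower under total-count scaling (-0.62) and without IgE iGC replicate 3 (-0.26).

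The 6 cytosolic tRNA synthetases of the list all rose, by log2 fold changes of 1.23 to 2.19. Asns, asparagine synthetase, rose 5.25-fold, and Chac1, which degrades glutathione, measured 3.98, 4.44 and 4.65 CPM in IgE iGC and 85.4, 102 and 114 CPM in IgE PC. The CEBP-ATF element core TGATGNAA, which ATF4 is known to read, occurred in 7 of the 23 list genes with a matched promoter (Atf3, Chac1, Asns, Slc7a11, Vldlr, Gars and Aars). It occurred in 2.51% of all genes tested with a matched promoter and in 3.45% of all promoters in the table. Over all 265 genes tested that held it, 38.5% were called higher, against the 31.5% given above. Examples from Chac1 and Asns show it on opposite strands, with the match in capitals.
Chac1 (chr2:119350993-119351112, plus strand): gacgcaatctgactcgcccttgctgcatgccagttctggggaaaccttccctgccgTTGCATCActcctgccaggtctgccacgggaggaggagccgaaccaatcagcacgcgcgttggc
Asns (chr6:7693210-7693329, minus strand): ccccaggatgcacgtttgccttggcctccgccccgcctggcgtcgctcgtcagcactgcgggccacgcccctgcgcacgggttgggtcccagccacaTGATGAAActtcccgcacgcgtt

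Heat shock genes, most of them for proteins of the cytosol, did not move with the chaperones of the ER. Of 14 such genes 0 were called higher and 8 lower, with a median of -0.47. The 8 include Hspd1 (-0.82) and Hspe1 (-0.59), whose products are chaperones of mitochondria. Hspb1 had the largest value of the list (4.06) but was not called. Hspa8, the constitutive cytosolic HSP70, stood at 1375 and 589 CPM in IgE iGC and IgE PC, and Hsp90aa1 at 503 and 236 CPM. Counts of both were fractional in all 15 libraries. Autophagy genes were mostly higher, 15 of 22, beside 30.5% of all genes tested. They were led by the phosphoinositide-binding Wipi1 (3.65), the cargo receptor Sqstm1 (2.40) and Atg13 (2.34). Tfeb, a transcription factor of lysosomal genes, fell (-1.23). Under total-count scaling 12 autophagy genes were called higher and 8 lower.

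Metabolic lists were divided. Of 22 genes of sterol and lipid synthesis 18 fell, beside 33.6% of all genes tested. Among those that fell were Scd1 (-1.69), Idi1 (-1.44) and Mvk (-1.36), while Insig1, which restrains the pathway, rose (0.85). In glycolysis 6 of 20 were higher and 10 lower, with 2 higher and 16 lower under total-count scaling. The share called higher was near the 30.5% of all genes. Hexokinase 2 (Hk2, 1.06) and the phosphofructokinase Pfkp (0.69) rose, while the glucose transporter Slc2a3 (-1.59), Pfkfb3 (-1.51) and Ldha (-0.97) fell. Nuclear genes of the respiratory chain had a median of 0.01, with 3 of 20 higher and 4 lower. These are smaller shares than the 30.5% and 33.6% of all genes. Under total-count scaling 0 were higher and 17 lower. Cytosolic ribosomal protein genes were lower in 63 of 81, by a median of -0.32.

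Antigen presentation fell. Of 13 genes of the MHC class II route 12 were called lower and 0 higher, with a median of -1.63. H2-Aa, the alpha chain of I-A, measured 3159, 3055 and 2943 CPM in IgE iGC and 979, 1013 and 969.8 CPM in IgE PC. The gene stayed well expressed in IgE PC, though every library was under every IgE iGC library (-1.63, SE 0.08). H2-Oa, a brake on peptide loading, fell by more (-2.72) and Cd74 by less (-0.46). The protease Lgmn was not called (0.01; -0.46 and called lower under total-count scaling).

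Transcripts of surface molecules changed along with those of MHC class II. Of 23 B cell surface genes 20 fell, with a median of -1.68. Cd72 encodes an inhibitory coreceptor and measured 179, 174 and 177 CPM in IgE iGC and 5.08, 5.53 and 3.66 CPM in IgE PC. No other gene of the list fell as far (-5.21, SE 0.13). Falls were also seen for Icosl, the ligand by which B cells engage ICOS on T cells (-4.59), the complement receptor Cr2 (-3.32) and Cd40, which receives T cell help (-2.63). Fcer2a, the low-affinity IgE receptor CD23, measured 883, 929 and 946 CPM in IgE iGC and 233, 229.5 and 182 CPM in IgE PC. All 3 IgE PC libraries were lower for it (-2.10, SE 0.10). Cd24a was the single gene of the list that rose (0.69).

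Of 20 plasma cell surface genes 14 rose and 2 fell. Cd28, best known as the costimulatory receptor of T cells and also made by plasma cells, measured 1.00, 0.833 and 0.672 CPM in IgE iGC and 59.7, 57.9 and 67.0 CPM in IgE PC. Tigit, an inhibitory receptor of T and natural killer cells, measured 0.0910, 0.194 and 0.258 CPM in IgE iGC and 18.2, 17.6 and 22.0 CPM in IgE PC. Both were at or under 1.00 CPM in each IgE iGC library and rose in all IgE PC libraries. The 12 T cell markers together summed to between 2.53 and 3.10 CPM in IgE PC, with Cd3e at 0, Trac not called and Cd247 called higher, as given above. Tnfrsf17, the APRIL receptor BCMA that plasma cells depend on, measured 0.432, 0.472 and 0.517 CPM in IgE iGC and 7.75, 8.24 and 9.10 CPM in IgE PC. It rose 17.8-fold but stayed under 10 CPM. The related receptor TACI (Tnfrsf13b) was higher at 0.49, or 0.03 and not called under total-count scaling, and the BAFF receptor Tnfrsf13c fell (-1.38). Of the 14 genes around these receptors and NF-kB 10 fell, among them Rel (-1.76), Nfkb2 (-1.45), Relb (-1.08) and Traf1 (-1.97). Ptprs and Cd38 were the plasma cell surface genes that fell (-1.48 and -0.98).

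Of 21 homing and adhesion genes 7 were higher and 11 lower, beside 30.5% and 33.6% of all genes tested. Ccr7, the chemokine receptor that guides cells into the T cell zone of lymphoid tissue, measured 72.7, 64.8 and 58.7 CPM in IgE iGC and 5.31, 5.24 and 4.81 CPM in IgE PC. Its fall was 12.8-fold. Other receptors for lymphoid tissue fell with it: Ccr6 (-4.55), Cxcr5 (-1.79), S1pr2 (-2.26) and the EBI2 gene Gpr183 (-1.67). Cxcr4, the receptor for the bone marrow chemokine CXCL12, measured 50.5, 43.3 and 45.9 CPM in IgE iGC and 104, 100.2 and 96.6 CPM in IgE PC. It rose 2.15-fold, and Ccr10 (1.05), Itgal (1.15), Cd44 (1.14) and Itga4 (0.89) were higher, while the integrin gene Itgb7 fell (-2.58).

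The B cell receptor (BCR) pathway was lowered unevenly. Of 30 genes 21 fell and 6 rose, beside 33.6% and 30.5% of all genes tested, with a median of -0.56. Under total-count scaling 26 were called lower and 3 higher, with a median of -1.03. Among kinases next to the receptor, Blk fell 3.99-fold, Lyn 2.34-fold and Syk 1.68-fold. Lck, a kinase usually described in T cells, measured 13.9, 14.6 and 11.4 CPM in IgE iGC and 0.639, 0.663 and 0.523 CPM in IgE PC. Fyn, of the same family, measured 225, 213 and 229 CPM in IgE iGC and 487, 464 and 471 CPM in IgE PC and moved the opposite way, with a log2 fold change of 1.09 (SE 0.06). The adaptor Bank1 fell (-3.19), and the chain of protein kinase C beta (Prkcb, -1.76) and Malt1 (-0.99) fell as well. The phosphatase Ptpn6 (SHP-1), which restrains the receptor, also fell (-1.49). Rises were seen for the exchange factor Vav3 (2.10), the kinase subunit Pik3cg (2.15) and Rasgrp3 (0.52, or 0.05 and not called under total-count scaling). Plcg2, the phospholipase that starts calcium release, was not called (-0.09, SE 0.05), nor was Vav1 (-0.06), and both were called lower under total-count scaling (-0.56 and -0.53).

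Calcium handling, the subject named in the series' title, showed no common direction. Of 34 genes 10 were higher and 16 lower, beside 30.5% and 33.6% of all genes tested. The median was -0.10 beside -0.08 for all genes tested, and total-count scaling gave 6 higher and 24 lower. Paralogues moved in opposite directions. Atp2a2, the SERCA2 pump that refills the ER with calcium, measured 214, 213 and 204 CPM in IgE iGC and 719.8, 698 and 772 CPM in IgE PC. Atp2a3, the SERCA3 pump typical of blood cells, measured 956, 979 and 961 CPM in IgE iGC and 433, 439 and 411 CPM in IgE PC. Atp2a2 rose 3.47-fold and Atp2a3 fell 2.26-fold, with no overlap for either. In TPM, which allows comparison between genes, Atp2a2 went from 72.0 ± 0.775 to 149 ± 2.46 and Atp2a3 from 403 ± 14.5 to 103 ± 6.88 (mean ± SD, n = 3 each).

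The IP3 receptors, through which calcium leaves the ER, also split. Itpr1 (-0.53) and Itpr3 (-1.03) fell, and Itpr2 was higher at 0.63, or 0.17 and not called under total-count scaling. Of the store-operated channels, Orai2 (-0.43) and Orai3 (-0.57) fell and Orai1 was higher at 0.52, or 0.06 and not called under total-count scaling. Stim1, the sensor of the ER store, was not called (0.12; -0.35 and called lower under total-count scaling), and it was called higher in the same 4 alternatives as Foxo1 (0.14 to 0.18). Kcnn4, a calcium-activated potassium channel, measured 65.8, 64.0 and 58.4 CPM in IgE iGC and 244, 244 and 249 CPM in IgE PC, a 3.91-fold rise without overlap. Cacna1e, the pore of a voltage-gated calcium channel, measured 12.1, 12.3 and 12.3 CPM in IgE iGC and 88.9, 94.9 and 75.8 CPM in IgE PC, and rose by 2.82 (SE 0.17). Tmco1, an ER membrane protein described as a calcium leak channel, rose by 1.14. Downstream, the calcineurin subunit Ppp3cc rose (1.31), whereas the calcineurin-dependent factors Nfatc1 (-1.06), Nfatc2 (-0.71) and Nfatc3 (-0.34) fell. Rcan1, a known target and inhibitor of calcineurin, was not called (-0.11; -0.57 and called lower under total-count scaling).

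Genes that receptor signals induce within minutes to hours were called in both directions, 11 of 28 higher and 11 lower, with 8 higher and 14 lower under total-count scaling. These shares are not far from the 30.5% and 33.6% of all genes. Nr4a1, often used as a reporter of antigen receptor signals, measured 1.96, 2.08 and 1.91 CPM in IgE iGC and 0.610, 0.695 and 0.383 CPM in IgE PC. Its paralogue Nr4a2 measured 0.114, 0.139 and 0.103 CPM in IgE iGC and 1.94, 2.18 and 2.41 CPM in IgE PC. It moved the opposite way, on as few as 2 reads in an IgE iGC library, both genes being at 2.41 CPM or less in every library. Egr3 (-3.58) and Egr2 (-1.31) fell, while Egr1 was not called (0.31), though it was called higher without IgE iGC replicate 3 (0.70). Ccl22, a chemokine for T cells, measured 70.2, 73.1 and 78.6 CPM in IgE iGC and 5.51, 6.44 and 6.59 CPM in IgE PC, and Bhlhe40 and Myc fell (-2.68 and -1.17). Fos rose by 2.59 and measured 24.9, 23.8 and 22.0 CPM in IgE iGC and 180.1, 139.8 and 106 CPM in IgE PC, without overlap. Jun (1.76), the phosphatase gene Dusp5 (2.41) and Cish (2.03), a target of STAT5, rose as well.

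**Figure D4:**
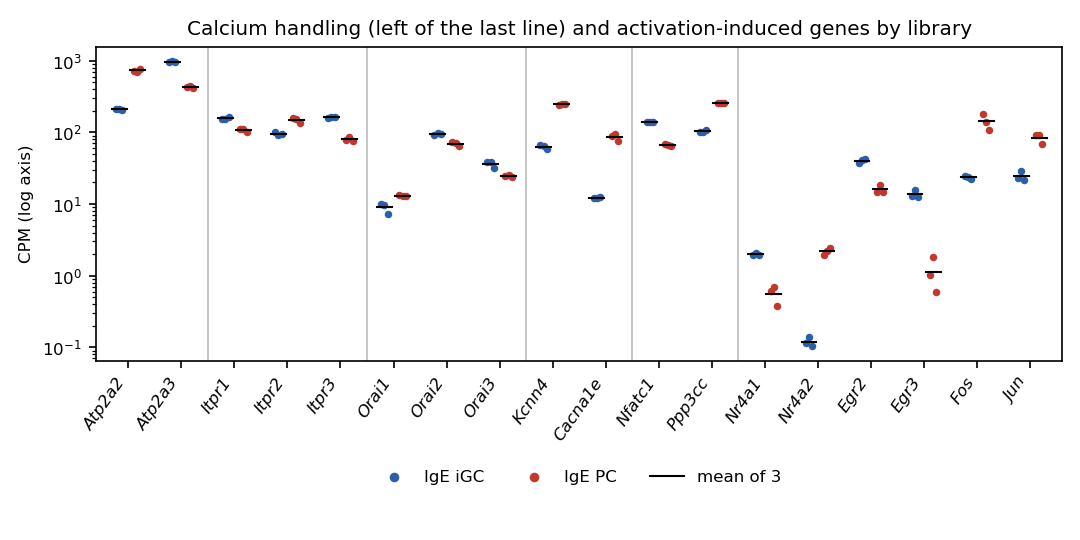
CPM (y axis, log scale) of 12 genes of calcium handling and, right of the last line, 6 activation-induced genes in each IgE iGC and IgE PC library, 3 points per group with their mean as a bar. Atp2a2 and Atp2a3 move in opposite directions, as do Nr4a1 and Nr4a2, and Cacna1e moves from 12.1 to 12.3 CPM in IgE iGC to 75.8 to 94.9 CPM in IgE PC.

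Genes of survival and death moved by less than those of secretion. Bcl2l11, which encodes the pro-apoptotic BIM, measured 65.9, 63.3 and 62.3 CPM in IgE iGC and 121, 119 and 117 CPM in IgE PC. Its libraries did not overlap, and the rise was 1.86-fold (log2 fold change 0.90, SE 0.05). Bbc3 (PUMA, 1.02) and Bmf (0.98) rose by like amounts, whereas Bid (-1.05), Pmaip1 (NOXA, -0.92) and Bax (-0.32) fell. Over all genes tested, 30.5% were called higher and 33.6% lower. Of the BCL2 family, 4 of 8 pro-apoptotic and 3 of 7 protective genes tested were called higher, and 3 and 2 lower. Under total-count scaling 3 and 2 were higher and 4 and 4 lower. On the protective side Mcl1, on which plasma cells depend, was not called (0.13, SE 0.06; -0.34 and called lower under total-count scaling) at 858 and 942 CPM. It was called higher in the same 4 alternatives as Foxo1 and without IgE PC replicate 2 (0.15 to 0.19). Bcl2l1 (BCL-XL) rose by 0.70, and Bcl2 was called higher at 0.47 but not under total-count scaling (0.01). Bcl2a1b and Bcl2a1d fell (-1.25 and -1.41), with fractional counts in 15 and 14 libraries since these copies share sequence. Of 25 caspase, death receptor and p53 genes 9 were higher and 9 lower, shares near those of all genes. Under total-count scaling 6 were higher and 15 lower. Cdkn1a, the cell cycle inhibitor p21, rose by 2.16, and Cflar, an inhibitor of caspase 8 activation, by 1.47. Ripk3 (-1.31), Trp53 (-1.01) and the death receptor Fas (-0.97) fell.

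Replication genes were mostly lower, and mitotic genes were less clearly so. Of 24 genes of DNA replication 21 fell, with a median of -0.99, while Cdt1 (0.44), Cdc6 (0.28) and Cdc45 (0.21) were called higher. All 6 subunits of the MCM helicase fell, by log2 fold changes of -1.56 to -0.74. Mcm3 measured 194, 177 and 178 CPM in IgE iGC and 62.1, 65.6 and 58.6 CPM in IgE PC. The polymerase subunit Pold1 fell furthest (-1.92). Of 24 mitotic genes 13 fell and 4 were called higher, beside 33.6% and 30.5% of all genes tested. Their median was -0.28, beside -0.08 for all genes, and Kif23 fell most (-1.24). Called higher were Cdc20 (0.57), Ube2c (0.33), Ccnb1 (0.22) and Mki67. In sum the mitotic list measured 2805 to 3251 CPM in IgE iGC and 2862 to 3411 CPM in IgE PC, so the sums overlapped. Under total-count scaling 21 mitotic genes were called lower and 1 higher, with a median of -0.75, beside 22 lower and 0 higher with a median of -1.46 for replication. Mki67, the proliferation antigen Ki-67, measured 779, 754 and 934 CPM in IgE iGC and 1369.6, 1436 and 1461 CPM in IgE PC. It was higher in each IgE PC library than in any IgE iGC library (0.79, SE 0.10; 0.32 under total-count scaling). Of 24 G1 regulators 9 were higher and 9 lower, shares not far from the 30.5% and 33.6% of all genes. Under total-count scaling 6 were higher and 15 lower. Ccnd2 rose (1.38) and Ccnd3 fell (-1.49), and Cdkn1b, the inhibitor p27, rose (1.13).

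Of 16 interferon-stimulated genes 6 were higher and 4 lower, shares near those of all genes (30.5% and 33.6%), with 3 higher and 7 lower under total-count scaling.

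Germinal centre markers fell in 15 of 19 cases, with a median of -1.13. Mybl1, a MYB factor of dividing germinal centre cells, measured 223, 215 and 204 CPM in IgE iGC and 7.87, 8.56 and 7.70 CPM in IgE PC, a 26.6-fold fall. Rgs13 measured 0.887, 0.833 and 1.39 CPM in IgE iGC and 0.0290, 0 and 0 CPM in IgE PC. Its values in IgE PC are at or near 0 and no fold is given. S1pr2, which confines cells to the germinal centre (-2.26), Gcsam (-1.84) and the repair enzyme Apex1 (-2.20) fell too.

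Across all genes, the 12 largest rises among well-expressed genes were those of Sdc1, Hid1, Bhlha15, Tigit, Arfgef3, Arhgap32, Derl3, Cd28, Prlr, Cpeb3, Eef1akmt3 and Chrnb4, with log2 fold changes from 7.21 to 5.96. Hid1, which takes part in secretory granule traffic, measured 1.34, 0.805 and 1.14 CPM in IgE iGC and 151, 154 and 172 CPM in IgE PC. Prlr, the prolactin receptor, measured 0.705, 0.750 and 0.517 CPM in IgE iGC and 47.2, 46.8 and 49.8 CPM in IgE PC. Arfgef3 measured 1.09, 0.694 and 1.03 CPM in IgE iGC and 85.4, 83.3 and 94.3 CPM in IgE PC, and Cpeb3, a protein that binds messenger RNA tails, 1.11, 0.722 and 0.878 CPM in IgE iGC and 60.7, 60.2 and 65.1 CPM in IgE PC. All 4 were near 1 CPM or below in IgE iGC and at 46.8 CPM or more in every IgE PC library. Arhgap32 and Tigit rested on as few as 3 and 4 reads in an IgE iGC library, so the size of their rise is less certain. In the other direction, 11 of the 12 genes that fell most were Hemgn, Ms4a4c, Cd72, Sorl1, Stum, Lilrb4a, Ms4a6c, Lilr4b, Nxpe2, Ell3 and Rflnb, from -5.45 to -4.86. Sorl1, a sorting receptor, measured 353, 339.5 and 363 CPM in IgE iGC and 8.94, 11.3 and 7.98 CPM in IgE PC, and Hemgn, a nuclear protein known from blood cell development, fell from 49.5 ± 1.79 to 1.13 ± 0.124 CPM (mean ± SD, n = 3 each). Ms4a4c, Ms4a6c, Lilrb4a and Lilr4b have near relatives, and RSEM divided reads among them in at least 13 of the libraries, so their values are uncertain.

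Whether the same step differed in IgG1 cells was tested by the interaction, the log2 fold change in IgE minus that in IgG1. Over all genes tested by edgeR it was called positive for 19.8% and negative for 23.1%. Among the 12 rises it was called for 6, positive for 5 and negative for Bhlha15 (-1.03, SE 0.29), which rose further in IgG1 cells (7.89). For Sdc1, Hid1, Tigit, Derl3, Cpeb3 and Chrnb4 the difference was not called. Cd28 reached a mean of 61.5 CPM in plasma cells of IgE and 17.1 CPM in those of IgG1, from below 1 CPM in both iGC groups (interaction 1.81, SE 0.33). Among the 11 falls named it was called for all 11 and negative for each. These genes were chosen for large changes in IgE, which favours an interaction in their own direction. Ell3, an elongation factor of the family of Ell2, ended between 0.488 and 0.551 CPM in plasma cells of IgE and between 2.73 and 4.27 CPM in those of IgG1, having stood at means of 17.1 and 13.4 CPM in the iGC groups (interaction -3.18, SE 0.25).

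The day 6 cultures are given beside these groups as levels only. Stum, a membrane protein gene, was lower in D6 (0.621 CPM) than in IgE iGC (76.0 CPM). For Sdc1, Bhlha15, Cd28 and Prlr the D6 means of 11.2, 23.1, 11.2 and 5.05 CPM lay between those of IgE iGC and IgE PC. D6 was an unsorted mixture, whose makeup was not measured here.

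**Figure D5:**
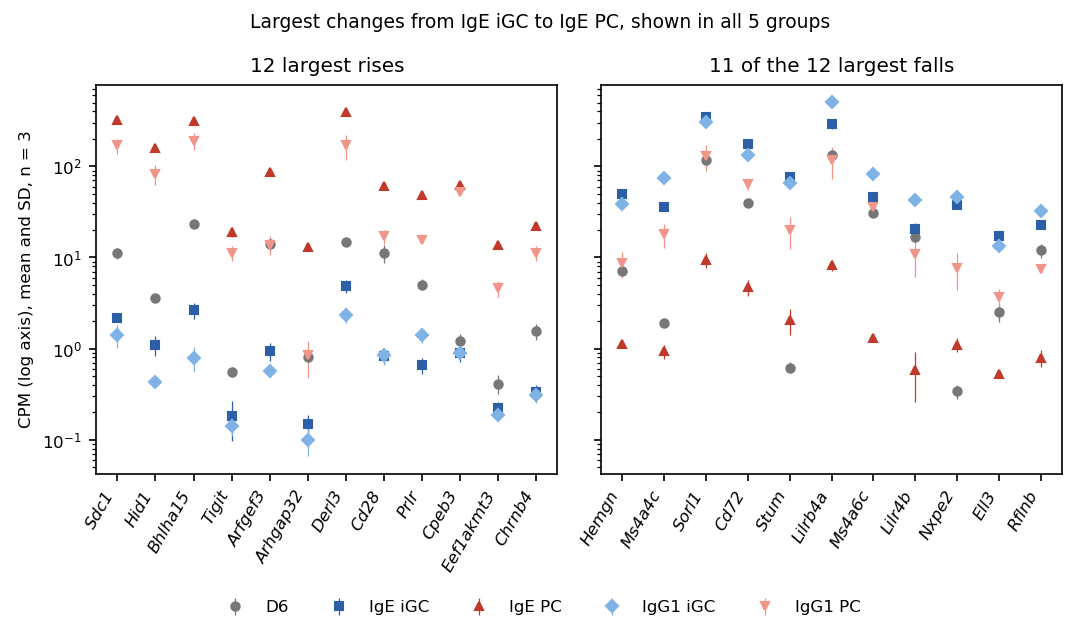
Mean CPM (y axis, log scale) with SD, n = 3, in all 5 groups for the 12 genes that rose most (left) and 11 of the 12 that fell most (right) from IgE iGC to IgE PC; where the SD is close to the mean the lower bar is cut short at 5% of the mean. Among the falls the IgE PC triangles lie below the IgG1 PC triangles for each gene, and Stum is lower at day 6 than in IgE iGC.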

How the data were processed

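PolyA RNA of 15 libraries, 3 per group, was read as strand-specific single ends of 76 bp, per the labels' protocols. Per the file headers, the authors deposited an RSEM expected count and a TPM value for each of 51912 Ensembl genes. Expected counts are estimates that divide reads among similar genes. At least 90.95% of the deposited expected count values per library were whole within 0.005. This covers all 51912 genes and counts values of 0 as whole, so it does not give the share among expressed genes. TPM values were scaled by the authors for length and library total. The submitters' processing notes name cutadapt 1.9.1, STAR 2.5.2a, RSEM 1.3.0, DESeq2 1.12.3 and GRCm38; the annotation, and whether strand was used in counting, are not given in the sources used here. All columns matched a library title, and 51633 identifiers had a symbol in a table of Ensembl names.

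Expected counts were rounded, filtered with filterByExpr (minimum count 10, minimum total 15), scaled by TMM and fitted in edgeR 4.0.16 (R 4.3.3; glmQLFit, robust) to all 15 libraries with 1 mean per group, which gave 10 residual degrees of freedom and a biological coefficient of variation of 10.4%. Standard errors (SE) are approximate, each taken as the fold change on the log2 scale over the root of its F statistic. Calls have a Benjamini-Hochberg adjusted p under 0.05 over 15692 genes. CPM uses TMM-scaled library sizes. Shares of TPM were compared by exact permutation tests (scipy 1.17.1). Groups came from library titles. The comparison, the 31 gene lists and the 6 marker lists were chosen with earlier results of these data known, so the lists are described by counts and medians and not tested. Named were the label genes; the 12 largest rises and falls that were called, without overlap and with a mean of at least 10 CPM in a group, leaving out immunoglobulin and T cell receptor segments, predicted models and pseudogenes; the 10 most abundant by TPM; list members by size of change and role; and the 5 largest interactions each way. Some genes that these rules name are not reported here. Alternatives were DESeq2 1.42.0, other scalings and filters, other sets of libraries and the replicate number as a block. Reads carry no molecular identifiers.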

Additional observations from a re-analysis of the deposited data

Results flagged for a closer look

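For 18 of the 24 genes with the largest changes, the step from IgE iGC to IgE PC differed from the step from IgG1 iGC to IgG1 PC by a test of the difference itself (edgeR interaction, Benjamini-Hochberg adjusted over 15692 genes, log2 scale). The 18 were 6 of the 12 rises and 12 of the 12 falls. Over all genes tested, the difference was called positive for 19.8% and negative for 23.1%. The 5 largest differences in each direction are given here. The rise was larger in IgE for Arhgap32 (3.29), Prlr (2.68), Arfgef3 (1.92), Cd28 (1.81) and Eef1akmt3 (1.39). The value of Arhgap32 is less certain, since it rested on few reads in an IgE iGC library. Arhgap32 stood at 13.1 ± 0.919 CPM in plasma cells of IgE and 0.850 ± 0.370 CPM in those of IgG1, and Prlr at 47.9 ± 1.65 and 15.5 ± 1.16 CPM (mean ± SD, n = 3 each).

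The fall was larger in IgE for Cd72 (-4.13), Sorl1 (-4.00), Ms4a6c (-3.92), Stum (-3.48) and Hemgn (-3.32). The value of Ms4a6c is uncertain, since its reads were divided among near relatives. Sorl1 stood at 9.40 ± 1.69 CPM in plasma cells of IgE and 130.5 ± 41.0 CPM in those of IgG1, and Stum at 2.08 ± 0.660 and 20.1 ± 7.71 CPM (n = 3 each). All 10 were chosen from the genes that changed most in IgE cells, which favours a difference in that direction, and the size of the differences is to be read with that choice in mind.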

How the results depend on the processing

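Scaling by total counts moved the counts most: 2651 genes were called higher and 8743 lower, 1430 and 4062 of them at least 2-fold, in place of 4788, 5270, 2146 and 2136. The cause is the construction of the alternative, which leaves out the TMM factors of 0.764 to 0.800 in IgE PC and 1.08 to 1.10 in IgE iGC. Under it, signs turned for Foxo1 (-0.34), Lgmn (-0.46), Mcl1 (-0.34), Rps24 (-0.20), Sec24b (-0.31), Stim1 (-0.35) and Tpt1 (-0.060). Rps24 and Tpt1 were called higher under TMM, and Foxo1, Mcl1, Sec24b and Stim1, not called under TMM, were called higher with DESeq2, with RLE factors, with immunoglobulin genes left out and with only the IgE libraries in the fit. The other scalings and tools (DESeq2, RLE factors, immunoglobulin genes left out), no filter on low counts, and only the IgE libraries in the fit gave 4609 to 5049 genes higher and 4813 to 5181 lower. Leaving out each IgE library in turn gave 4514 to 4641 higher and 4804 to 5061 lower. The call of Rpl13a was lost without any 1 of 4 of the 6 libraries.

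With the replicate block, 9950 genes were called, 9852 of them among the 10058 of the fit without it, and the 10 differences between isotypes kept their call. Deviations of same-numbered IgE libraries correlated at 0.0451, 0.0849 and 0.106, so the numbers were not taken to pair them. Shares of expected counts in place of TPM kept all 5 directions; for immunoglobulin genes they were 1.61% and 20.4%, in place of 3.86% and 40.9%. With the ER stress element alone, 61.1% of genes were called higher, in place of 59.3%. Apart from Zfp57, those called higher with this element were genes of the secretory lists. The planned search for ER retention signals, and for KDEL alone, was not run, since protein sequences were not used here. IgE iGC replicate 3, at 17.74 M reads, limits weakly expressed genes.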
